A study of Homo sapiens with 4 samples.

Results

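The calcitonin family was followed in SK-N-BE(2)C, an established human neuroblastoma cell line with amplified MYCN, through 9 genes: the peptide genes CALCA, CALCB, ADM and ADM2, the receptor genes CALCR and CALCRL, and the receptor partner genes RAMP1, RAMP2 and RAMP3. The members were taken by gene symbol, and all 9 have a row among the 55765 rows of the deposited count table. In GENCODE 29, CALCA, CALCB and ADM lie on chromosome 11, ADM2 on 22, CALCR and RAMP3 on 7, CALCRL and RAMP1 on 2 and RAMP2 on 17. One group of 2 libraries came from cells given 10 µM all-trans retinoic acid (ATRA), a vitamin A derivative under which neuroblastoma cells differentiate, for 144 h, and the other group of 2 from cells given ethanol, its solvent, for the same 144 h. RNA was depleted of ribosomal RNA and made into directional libraries, and reads were counted per gene. Both groups are the same cell line grown in the same medium. Whether replicate libraries stem from independent cultures is not stated in the labels, so the errors describe these samples alone and may be of technical origin. The family was selected on the measured counts of ATRA against ethanol, whose results were known, so the members' values in that contrast are given as a description, without a test of their own.

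Calcitonin family peptides are hormones and neuropeptides cut from longer precursors. CALCA is spliced into either calcitonin, the calcium hormone of thyroid C cells, or the alpha form of calcitonin gene-related peptide (CGRP), a vasodilator released by sensory and other neurons. CALCB encodes the beta form of CGRP. ADM encodes adrenomedullin, a vasodilator first purified from a tumour of adrenal chromaffin cells, and ADM2 encodes its relative intermedin. The receptors CALCR and CALCRL couple mainly to the G protein that raises cyclic AMP, and single-pass RAMP proteins set which peptide they bind: CALCRL with RAMP1 forms the CGRP receptor, CALCRL with RAMP2 or RAMP3 forms adrenomedullin receptors, and CALCR binds calcitonin alone or amylin together with a RAMP.

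CALCA and CALCB, the CGRP genes, rose with ATRA and were nearly absent with ethanol. CALCRL, the receptor gene for their peptides, was higher in both ATRA libraries, at an adjusted p of 0.107 (edgeR quasi-likelihood). Of all genes tested, 23.8% had both ATRA libraries above both ethanol libraries, and 45.5% did not overlap in either direction. The genes for adrenomedullin, intermedin, RAMP1 and RAMP2 overlapped between the groups. RAMP1 had 739 reads or more in each of the 4 libraries. CALCR and RAMP3 had no read in any library. In the fit over all genes, described with the processing, 7 of the 9 members passed the filter on low counts, and 2 of these 7, CALCA and CALCB, passed the threshold, against 0.698% of the 18900 genes tested in the same comparison (edgeR quasi-likelihood, Benjamini-Hochberg adjusted p under 0.05). No member passed in the lower direction, and none was lower at an unadjusted p under 0.05 or with DESeq2 or limma-voom. Since the contrast was known when the family was chosen, and CALCA and CALCB passed the filter through their ATRA libraries, nothing is read from these counts. The median log2 fold change of the 7 members, 0.78, is the value of ADM2, which a single library set. Over all genes tested the median was 0.01. Since the members were chosen on this contrast, nothing is read from the gap between these medians either.

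The CALCA and CALCRL promoters are shown because these are the members with a promoter sequence at hand whose libraries did not overlap between the groups. They run 250 bases up to the base before the transcript start, 5′ to 3′ on the gene's strand, from RefSeq on build GRCh38.p14, at chr11:14972352-14972601 (minus strand) for CALCA and chr2:187448253-187448502 (minus strand) for CALCRL. Capitals mark TGACG, the core of the cyclic AMP response element, and TGACCT, the reverse complement of AGGTCA, a half-site that nuclear receptors such as the retinoic acid receptors bind.
CALCA: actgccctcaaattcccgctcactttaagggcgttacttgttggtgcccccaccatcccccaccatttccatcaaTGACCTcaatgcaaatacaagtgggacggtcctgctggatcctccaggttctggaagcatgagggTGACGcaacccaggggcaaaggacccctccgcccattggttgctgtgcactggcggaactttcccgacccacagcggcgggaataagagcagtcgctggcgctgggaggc
CALCRL: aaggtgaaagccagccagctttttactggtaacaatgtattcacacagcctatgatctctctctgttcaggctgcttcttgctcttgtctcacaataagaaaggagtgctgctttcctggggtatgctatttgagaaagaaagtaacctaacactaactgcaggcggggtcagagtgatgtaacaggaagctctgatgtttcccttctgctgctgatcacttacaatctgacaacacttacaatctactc
In CALCA the first base of TGACG lies at -110 and that of TGACCT at -175, counted from the start site. Over windows of 250 bases before to 50 after the start, on both strands, TGACG is held by 24.6% of 35116 RefSeq promoters and AGGTCA by 13.8%. The search also covered the full response element TGACGTCA, held by 1.85% of promoters and itself containing TGACG. It took in the E-box CACGTG (7.26%) and the hypoxia response core ACGTG (21.4%), which every CACGTG contains. Strict forms of the retinoic acid response element were searched as well. These are AGGTCA given again on the same strand after 5 bases, held by 2 promoters, or after 2 bases, held by 1 promoter. Only exact letters were matched, so looser forms of a motif or half-site were not counted, and these are not the shares of all retinoic acid response elements. Beyond the marked TGACG and TGACCT, the CALCA window held no exact copy of the motifs searched, including both strict retinoic acid response elements. CALCRL held no exact copy of the 7 motifs in its window, and neither did the windows of ADM, ADM2, CALCR and RAMP3. Promoters of CALCB, RAMP1 and RAMP2 were not matched. A match of letters does not show that a factor binds there.

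CALCA had 89 and 109 reads in ATRA libraries 1 and 2, against 1 and 0 reads in ethanol libraries 1 and 2. On library sizes scaled by TMM, a method that corrects for differences in composition, these are 6.03 and 6.52 CPM (counts per 1e+06 reads) with ATRA, against 0.0770 and 0 CPM with ethanol. The gene was thus almost silent in both ethanol libraries and close to equal in the ATRA libraries. Summed over the libraries of a group, the ratio of ATRA to ethanol was 209, with a 95% exact counting interval of 37.0 to 8282, a wide interval because it rests on a single ethanol read. The fitted log2 fold change of 7.33 ± 0.96 (SE) depends on the prior count for the same reason. Gene counts do not separate calcitonin transcripts from CGRP transcripts, so which of the CALCA products the reads belong to is not known. In bulk RNA, more cells with a transcript and more transcript per cell cannot be told apart either.

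CALCB had 339 and 516 reads in ATRA libraries 1 and 2, against 10 and 12 reads in ethanol libraries 1 and 2. It averaged 26.9 ± 5.59 CPM with ATRA and 0.682 ± 0.124 CPM with ethanol (SD, n = 2 each). Both ATRA libraries thus stood far above both ethanol libraries, and the gap was larger than the spread within either group. The fitted log2 fold change was 5.30 ± 0.42 (SE), a 39.5-fold rise. Between libraries of the same title number the log2 differences were 4.69 for number 1 and 5.43 for number 2; for CALCA they were 4.94 and 5.75, values that a prior count of 2 holds down.

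CALCA and CALCB are neighbours that arose by duplication, and reads from their most similar stretches could be given to either. In GENCODE 29 transcripts they shared 43 stretches of 50 bases, which is 1.94% of the distinct stretches of that length in CALCA and 1.11% of those in CALCB, and they shared 0 stretches of 75 bases. No source used here gives the read length or says how shared reads were handled. Counted as 1 gene, the pair had 428 and 625 reads with ATRA against 11 and 12 with ethanol, a log2 fold change of 5.53 ± 0.41 (SE). Per kilobase of exon annotated in GENCODE 29, a scale on which genes can be compared, the CALCB level was 5.83 and 7.84 CPM per kb in the ATRA libraries and the CALCA level 2.83 and 3.06. CALCB was therefore the higher of the pair per length in both ATRA libraries. CALCA took 20.8% of the reads of the pair in ATRA library 1 (95% exact binomial interval 17.0% to 25.0%) and 17.4% in ATRA library 2 (14.5% to 20.6%). With ethanol it took 1 of 11 reads in library 1 (interval 0.230% to 41.3%) and 0 of 12 in library 2 (upper bound 26.5%), so a change in the balance of the pair was not detectable at this depth. Intervals on counts cover counting error only.

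ADM had 34 and 24 reads in ATRA libraries 1 and 2, against 21 and 67 reads in ethanol libraries 1 and 2. The groups overlapped, with ethanol library 2 the highest at 3.32 CPM and ATRA library 2 the lowest at 1.44 CPM. The log2 fold change was -0.41 ± 0.63 (SE), and it turned to 0.22 without ethanol library 2. ADM is a well-known target of the hypoxia response.

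ADM2 had 88 reads in each ATRA library, against 11 and 113 reads in ethanol libraries 1 and 2. In CPM this was 5.96 and 5.26 with ATRA against 0.847 and 5.60 with ethanol, so that ethanol library 1 stood apart and the other 3 libraries were close together. The log2 fold change was 0.78 ± 0.84 (SE), and a single library set it: it was 2.73 and past the threshold without ethanol library 2, and -0.04 without ethanol library 1. The libraries with no number in their titles, called 1 here, also differ from those numbered 2 in mitochondrial ribosomal RNA, which took 2.49% of counts in ATRA library 1 and 5.96% in ethanol library 1, against 0.130% in ATRA library 2 and 0.0291% in ethanol library 2. Its part in the ADM2 values was not tested.

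**Figure D1:**
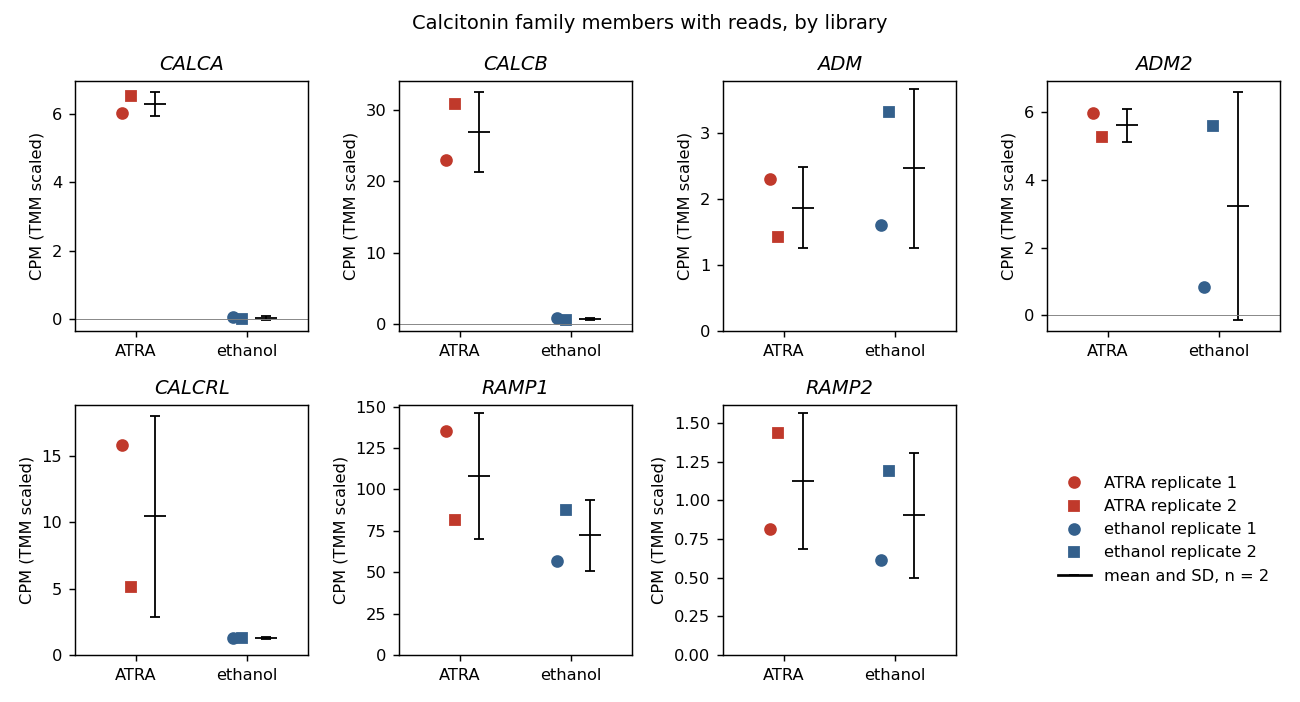
CPM on TMM-scaled library sizes of the 7 family members with reads, 1 panel per gene with its own linear axis; circles and squares are replicates 1 and 2, red for ATRA and blue for ethanol, and the black mark and bar are mean and SD of 2 libraries. CALCA, CALCB and CALCRL lie higher in both ATRA libraries than in both ethanol libraries, and in the other 4 genes the groups overlap.

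On the receptor side, CALCRL had 233 and 85 reads in ATRA libraries 1 and 2, against 17 and 25 reads in ethanol libraries 1 and 2. It averaged 10.4 ± 7.56 CPM with ATRA and 1.27 ± 0.0495 CPM with ethanol (SD, n = 2 each). The ethanol libraries nearly coincided, while ATRA library 1 was well above ATRA library 2, at 15.8 and 5.08 CPM. The fitted log2 fold change was 3.03 ± 0.67 (SE), with 3.47 between the libraries numbered 1 and 1.93 between those numbered 2. CALCRL did not pass the threshold in the fit over all genes. Without ATRA library 1 its log2 fold change was 1.99. CALCA, CALCB and CALCRL were the 3 of 7 members whose groups did not overlap, all 3 with both ATRA libraries on top; of all genes tested 23.8% had both ATRA libraries above both ethanol libraries and 21.7% had both below, 45.5% in all.

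RAMP1, the partner that gives CALCRL its CGRP binding, had 1997 and 1362 reads in ATRA libraries 1 and 2, against 739 and 1765 reads in ethanol libraries 1 and 2. It averaged 108 ± 38.0 CPM with ATRA and 72.2 ± 21.6 CPM with ethanol (SD, n = 2 each), and the groups overlapped, since ethanol library 2, at 87.5 CPM, exceeded ATRA library 2, at 81.5 CPM. The log2 fold change was 0.59 ± 0.36 (SE), and it was 0.16 without ATRA library 1 and 0.94 without ethanol library 2.

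RAMP2, which turns CALCRL into an adrenomedullin receptor, had 12 and 24 reads in ATRA libraries 1 and 2, against 8 and 24 reads in ethanol libraries 1 and 2. The groups overlapped, and the log2 fold change was 0.30 ± 0.70 (SE), with values of -0.18 to 0.88 when 1 library was left out. An antisense gene, RAMP2-AS1, covers 35.9% of the annotated exon bases of RAMP2, and no source used here says how strand entered the counting, so some of these few reads may belong to it. It was counted with 0 and 11 reads in the ATRA libraries, against 4 and 13 reads in the ethanol libraries.

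CALCR, the calcitonin and amylin receptor gene, and RAMP3 had 0 reads in each of the 4 libraries. A count of 0 allows a level of up to 0.203 and 0.179 CPM in ATRA libraries 1 and 2, against 0.231 and 0.149 CPM in ethanol libraries 1 and 2, taking 3 reads as the limit. No fold change was computed for either gene. IAPP, the gene of the peptide amylin, also had 0 reads in all 4 libraries.

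Per kilobase of annotated exon, RAMP1 was the highest of the receptor genes in every library, at 110 and 66.0 CPM per kb with ATRA, against 46.1 and 70.9 CPM per kb with ethanol. CALCRL stood at 2.57 and 0.828 CPM per kb with ATRA, against 0.213 and 0.202 CPM per kb with ethanol. RAMP2 stood at 0.708 and 1.25 CPM per kb with ATRA, against 0.537 and 1.04 CPM per kb with ethanol. With ATRA the order of CALCRL and RAMP2 differed between the libraries, CALCRL being the higher in library 1 and RAMP2 in library 2, so the pair do not differ beyond their spread. With ethanol RAMP2 was the higher in both libraries. RAMP1 took 99.4% and 98.3% of all RAMP reads in ATRA libraries 1 and 2, against 98.9% and 98.7% in ethanol libraries 1 and 2. The makeup of the RAMP transcripts was thus almost all RAMP1 in both groups. CALCRL took 10.4% and 5.87% of the reads of CALCRL and RAMP1 together in the ATRA libraries, against 2.25% and 1.40% in the ethanol libraries. RAMP1 was thus in excess over CALCRL in each library.

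**Figure D2:**
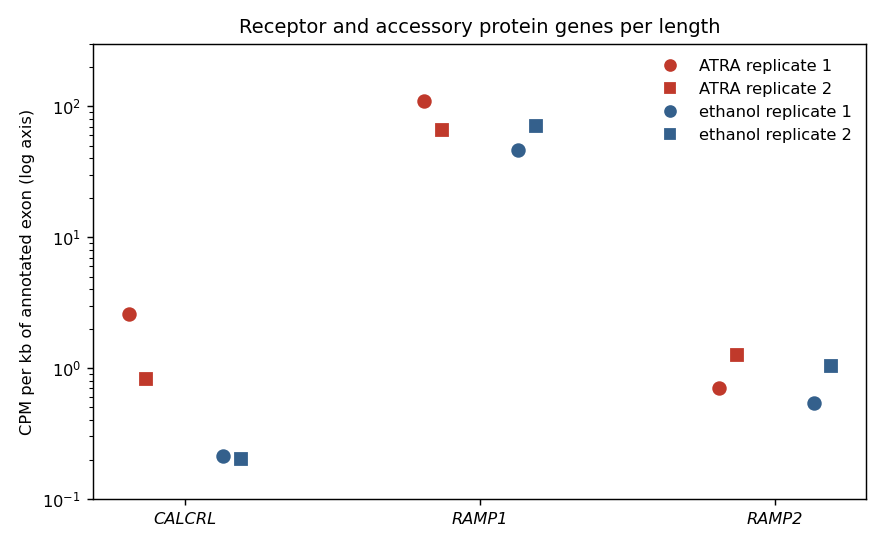
Level per length of CALCRL, RAMP1 and RAMP2, in CPM per kilobase of GENCODE 29 exon on a log axis; red is ATRA and blue is ethanol, circles are replicate 1 and squares replicate 2. RAMP1 lies between 46.1 and 110 in all 4 libraries, while CALCRL lies at 0.828 and 2.57 with ATRA and near 0.2 with ethanol; CALCR and RAMP3 had no reads and are not drawn.

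**Figure D3:**
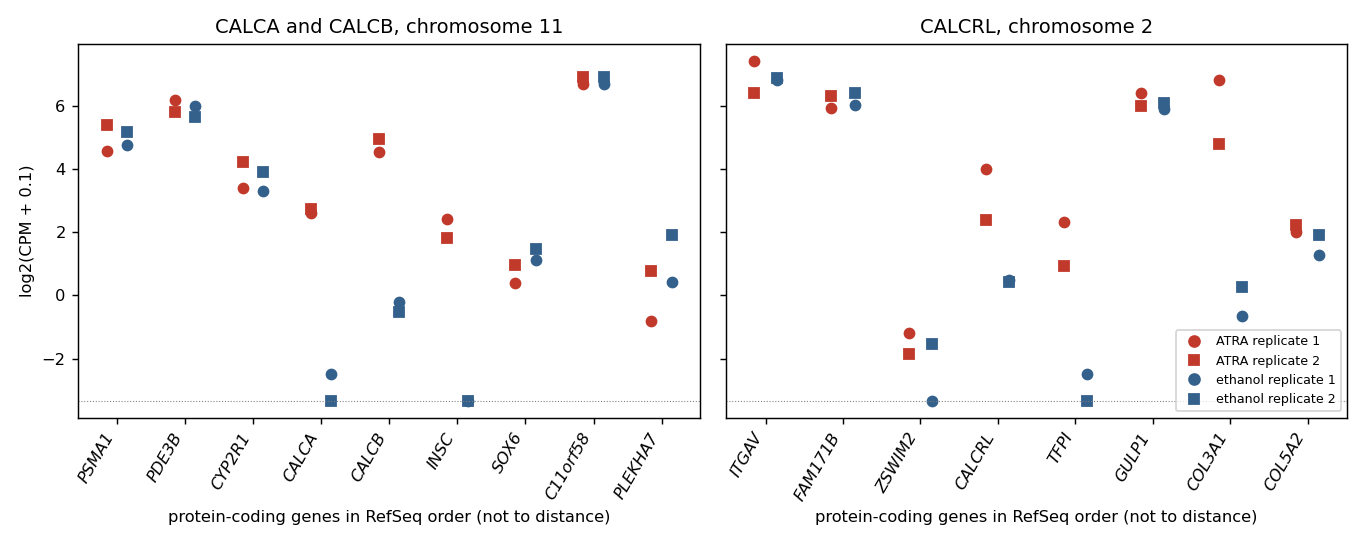
Levels of the protein-coding genes on either side of CALCA and CALCB (left) and of CALCRL (right), as log2(CPM + 0.1), in RefSeq order along the chromosome and not to distance; red is ATRA, blue is ethanol, circles are replicate 1 and squares replicate 2, and the dotted line marks 0 reads. INSC and TFPI, like CALCA, have 1 read or fewer in the ethanol libraries, PDE3B and GULP1 are near level between groups, and COL3A1, beyond GULP1, is higher in both ATRA libraries.

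The genes next to the members were looked at after the members' values were seen, taking the 4 protein-coding genes on either side in RefSeq order. INSC, which orients the mitotic spindle in asymmetric division, lies next to CALCB on the side away from CALCA. It had 78 and 57 reads in ATRA libraries 1 and 2, against 0 reads in both ethanol libraries, and was at least 47.4-fold higher with ATRA if 3 reads over the ethanol group are taken as the floor. The 95% exact counting interval of the ratio begins at 38.0. With an adjusted p of 0.0528 in the edgeR quasi-likelihood test it missed the threshold. CYP2R1, a vitamin D hydroxylase gene next to CALCA on its other side, was at a log2 fold change of 0.24 ± 0.42 (SE), and SOX6, beyond INSC, was at -0.63 ± 0.57. So CALCA, CALCB and INSC had between 0 and 12 reads in each ethanol library and between 57 and 516 in each ATRA library, and neither CYP2R1 nor SOX6 passed the test.

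TFPI, the gene of a coagulation inhibitor next to CALCRL, had 72 and 30 reads in ATRA libraries 1 and 2, against 1 and 0 reads in ethanol libraries 1 and 2, a ratio of 107 with a 95% exact counting interval of 18.9 to 4286. Like CALCRL it was higher in ATRA library 1, at 4.88 CPM, than in ATRA library 2, at 1.79 CPM, and it missed the threshold with an adjusted p of 0.0797 by edgeR quasi-likelihood. GULP1, the next gene, was at a log2 fold change of 0.22 ± 0.26 (SE). The fibrillar collagen gene COL3A1, beyond it, had 112 and 27.7 CPM in ATRA libraries 1 and 2, against 0.539 and 1.09 CPM in ethanol libraries 1 and 2, and rose, by 6.36 ± 0.85 (SE) on the log2 scale (adjusted p 0.0459, edgeR quasi-likelihood). On chromosome 7, CALCR and RAMP3 had no read while genes near them were higher with ATRA. SAMD9L, 3 genes from CALCR, had 19.3 and 15.0 CPM in ATRA libraries 1 and 2, against 0.154 and 0.297 CPM in ethanol libraries 1 and 2. IGFBP3, a gene for a binding protein of insulin-like growth factors that lies 4 genes from RAMP3, had 106 and 93.6 CPM with ATRA, against 3.70 and 8.47 CPM with ethanol, and both rose. NACAD, 2 genes from RAMP3, was at 2.06 ± 0.40 (SE) on the log2 scale and did not pass. Over the stretches around all 9 members, 50 neighbours were tested and 3 of them, SAMD9L, COL3A1 and IGFBP3, passed, all higher with ATRA. Of all genes tested, 0.545% passed in that direction. The neighbours were looked at after the members' values were seen, so nothing is read from the count of neighbours.

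CALCB was the member with the largest log2 fold change among those averaging 1 or more in log2 CPM, and the genes most like it were sought by the Euclidean distance between centred log2 CPM profiles over the 4 libraries, among 13754 other genes. The 5 nearest were HTN3, a histatin gene, at a distance of 0.49, the noncoding RP11-160H12.2 at 0.50, AC017048.3 at 0.51, ZCCHC12, a zinc knuckle gene of the brain, at 0.51 and C10orf85 at 0.55. ZCCHC12 had 9.28 and 14.8 CPM in ATRA libraries 1 and 2, against 0.462 and 0.198 CPM in ethanol libraries 1 and 2. With 4 libraries in 2 groups such a profile carries little beyond the size of the change.

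The other genes of the pathway were read from 9 lists with 121 genes, of which 102 passed the filter on low counts. Of these 102, 1 rose and 0 fell (edgeR quasi-likelihood), a share of 0.980% beside 0.698% of all genes tested. At an unadjusted p under 0.05, 21 were higher and 8 lower, beside 3009 of all 18900 genes tested, 1226 of them lower. DESeq2 called 12 higher and 4 lower, beside 6.36% of all genes it tested. With limma-voom 0 were called in either direction, beside 0.265% of all genes. These all-gene values are also the background for the counts of each list and marker set that follow, from which nothing is read. The median log2 fold change of the 102 genes was 0.15. The gene that rose is SCG5, which encodes the chaperone of a prohormone convertase. It had 163 and 166 CPM in ATRA libraries 1 and 2, against 52.7 and 46.7 CPM in ethanol libraries 1 and 2, a log2 fold change of 1.73 ± 0.24 (SE; adjusted p 0.0477, edgeR quasi-likelihood).

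Peptide precursors are cut by convertases and finished by PAM, the enzyme that puts on the C-terminal amide that CGRP, calcitonin and adrenomedullin need. Of 9 processing genes tested 1, SCG5, rose and 0 fell, and 4 were higher and 2 lower at an unadjusted p under 0.05, with 3 higher and 2 lower by DESeq2; the list's median was 1.44. PAM and PCSK1 are named after their values were seen. PAM had 438 and 199 CPM in ATRA libraries 1 and 2, against 125 and 109 CPM in ethanol libraries 1 and 2, a log2 fold change of 1.44 ± 0.41 (SE) short of the threshold (edgeR quasi-likelihood, adjusted p 0.168). PCSK1, a convertase of neuroendocrine granules, had 1.69 and 3.53 CPM with ATRA against 19.8 and 15.4 CPM with ethanol, also short of it (edgeR quasi-likelihood, adjusted p 0.0711). Of 4 peptide-degrading genes tested 0 passed, and 0 were higher and 2 lower at an unadjusted p under 0.05, with 0 higher and 1 lower by DESeq2. These 2 were ACE, the angiotensin-converting enzyme gene, at -2.01 ± 0.51 on the log2 scale, and ECE2, an endothelin-converting enzyme gene, at -1.18 ± 0.41. MME, which encodes neprilysin, had 0 reads in all 4 libraries.

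Of 6 related peptide and class B receptor genes tested 0 passed, 0 had an unadjusted p under 0.05 and DESeq2 called 0. ADCYAP1R1, the receptor gene for the neuropeptide PACAP, had 3.86 and 7.48 CPM with ATRA against 7.01 and 14.6 CPM with ethanol, and PTH2R, the receptor gene for a peptide of the parathyroid hormone family, had 8.33 and 9.93 CPM with ATRA against 5.16 and 6.59 CPM with ethanol. Of 8 other receptors known to associate with RAMPs, GPER1, the gene of an oestrogen-binding receptor, was the only gene that passed the filter, at 0.71 ± 0.88 (SE) on the log2 scale, and it did not pass the test.

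Among 19 receptor coupling genes tested 0 passed, while 4 were higher and 1 lower at an unadjusted p under 0.05, and DESeq2 called 2 higher and 0 lower. CRCP, which encodes a small protein that couples the CGRP receptor to its signal and is also a subunit of RNA polymerase III, had 183 and 176 CPM in ATRA libraries 1 and 2, against 65.7 and 86.8 CPM in ethanol libraries 1 and 2. Its groups did not overlap, and its log2 fold change was 1.24 ± 0.26 (SE), short of the threshold (edgeR quasi-likelihood, adjusted p 0.0955). ADCY3, an adenylyl cyclase gene, was at -1.05 ± 0.26. Of 20 genes for cyclic AMP effectors and breakdown 0 passed, and 5 were higher and 0 lower at an unadjusted p under 0.05, with 2 higher and 0 lower by DESeq2. PRKAR2B, a regulatory subunit of protein kinase A, had 165 and 266 CPM with ATRA, against 50.4 and 76.2 CPM with ethanol (log2 1.77 ± 0.36 SE; adjusted p 0.0913, edgeR quasi-likelihood).

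Of 13 cyclic AMP and CREB target genes 0 passed, and 2 were higher and 0 lower at an unadjusted p under 0.05, with 1 higher and 0 lower by DESeq2. CREM, a cyclic AMP-responsive transcription factor gene that is also in the list before, was at 1.13 ± 0.31 on the log2 scale, and VGF, a granin-like peptide precursor gene, was at 1.28 ± 0.45. Of 11 regulators of CALCA transcription and splicing 0 passed, and 2 were higher and 2 lower at an unadjusted p under 0.05, with 1 and 1 by DESeq2. ELAVL4, a neuronal RNA-binding protein gene, was at 1.66 ± 0.28 (SE) on the log2 scale. FOXA2, a factor of the CALCA enhancer in thyroid C cells, had 0 reads in all 4 libraries.

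Of 20 hypoxia targets and factors tested, a list to which ADM would belong, 0 passed, and 5 were higher and 1 lower at an unadjusted p under 0.05, with 3 higher and 0 lower by DESeq2; the median was 0.11. SLC2A3, a glucose transporter gene, was at 1.93 ± 0.39 on the log2 scale and HIF1A, the hypoxia factor gene, at 1.37 ± 0.38.

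**Figure D4:**
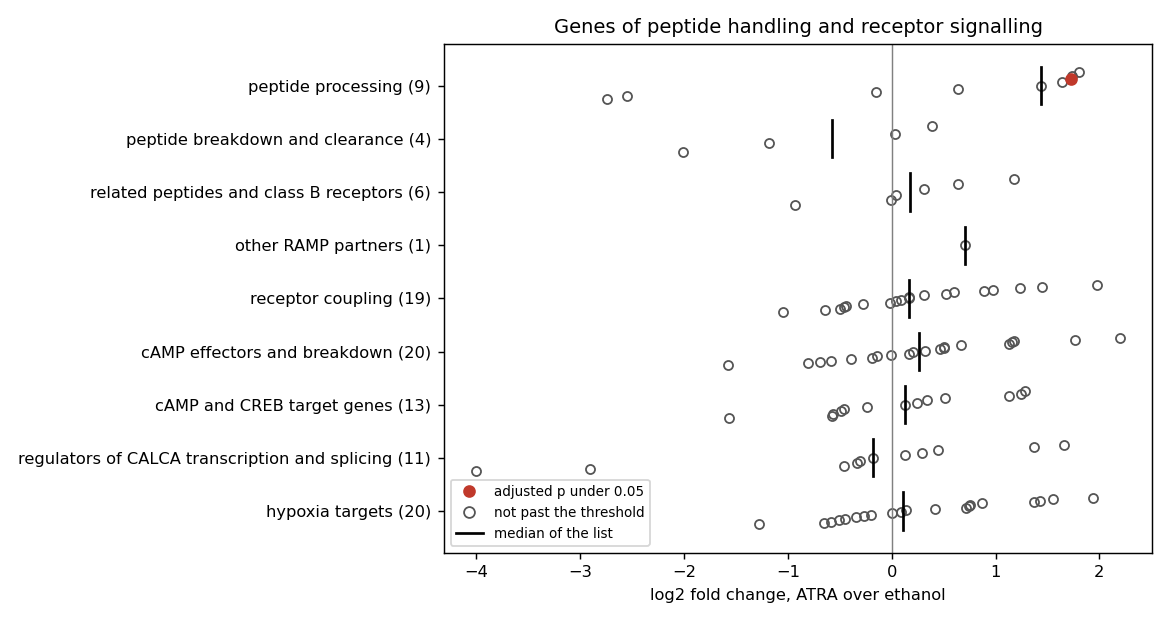
Log2 fold changes, ATRA over ethanol, of the tested genes of the 9 pathway lists, with the number tested in brackets; each circle is a gene, filled red where the adjusted p is under 0.05, and the black bar is the list's median. SCG5, at 1.73 in the peptide processing list, is the filled circle.

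Total counts ran between 12850462 and 19883465 per library. All 4 retinoid response genes checked, CYP26A1, CYP26B1, DHRS3 and RARB, rose with ATRA. All 11 markers of adrenergic neuroblastoma had reads; their summed level was 4253 and 3720 CPM with ATRA, against 8354 and 6701 CPM with ethanol, and 2 of them, GATA3 and CHGA, fell. Most of the difference between the sums came from CHGA and MYCN, while PHOX2A, at 454 and 275 CPM with ATRA against 221 and 165 CPM with ethanol, was the 1 marker higher in both same-numbered pairs. Markers of cell types that make or bind these peptides elsewhere were read as well. Of 8 endothelial markers 1 passed the filter and 0 the test, with 0 at an unadjusted p under 0.05 and 0 by DESeq2 or limma-voom, and their summed level was 5.69 and 2.21 CPM with ATRA, against 13.0 and 1.29 CPM with ethanol, most of it from FLT1. The other endothelial genes had few reads and moved in both directions. TEK had 9 and 3 with ATRA against 1 and 2 with ethanol, VWF 4 and 8 against 1 and 2, and ESAM 9 and 7 against 0 and 4. CLDN5 had 2 and 2 with ATRA against 25 and 5 with ethanol, and TIE1 0 and 0 against 1 and 2. CDH5 had 1 and 2 with ATRA against 3 and 1 with ethanol, and KDR 1 and 1 against 2 and 0. Of 8 peptidergic sensory neuron markers 3 passed the filter and 0 the test (1 higher at an unadjusted p under 0.05, 1 by DESeq2 and 0 by limma-voom), and their summed level was 286 and 210 CPM with ATRA, against 59.4 and 82.2 CPM with ethanol, with TAC1 at 0 in all libraries. Of 6 markers of the thyroid and its C cells 3 passed the filter and 1, CHGA, fell; 2 were higher and 1 lower at an unadjusted p under 0.05 and by DESeq2. NKX2-1 and PAX8 were at 0, CEACAM5 was at 0.135 CPM or less, and TG, the thyroglobulin gene of follicular cells, had 138 and 22 reads with ATRA against 0 and 5 with ethanol, a log2 fold change of 5.17 ± 1.40 (SE) that did not pass. The markers' part in the CALCA values was not tested. The sum of the thyroid and C cell markers was 1230 and 1518 CPM with ATRA, against 2887 and 2035 CPM with ethanol. It came mostly from CHGA and RET, which neuroblastoma cells also express and which moved in opposite directions. CHGA had 187 and 235 CPM with ATRA against 2511 and 1605 CPM with ethanol. RET had 1033 and 1281 CPM with ATRA against 375 and 430 CPM with ethanol, short of the threshold (edgeR quasi-likelihood, adjusted p 0.0709). The 4 leukocyte markers summed to 1.35 and 0.239 CPM with ATRA, against 0.770 and 0.0496 CPM with ethanol. Of the sensory neuron genes the sodium channel gene SCN9A moved with CALCA and CALCB, at 226 and 183 CPM in the ATRA libraries against 11.3 and 52.0 CPM in the ethanol libraries, short of the threshold (edgeR quasi-likelihood, adjusted p 0.137), and its part in their rise was not tested.

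**Figure D5:**
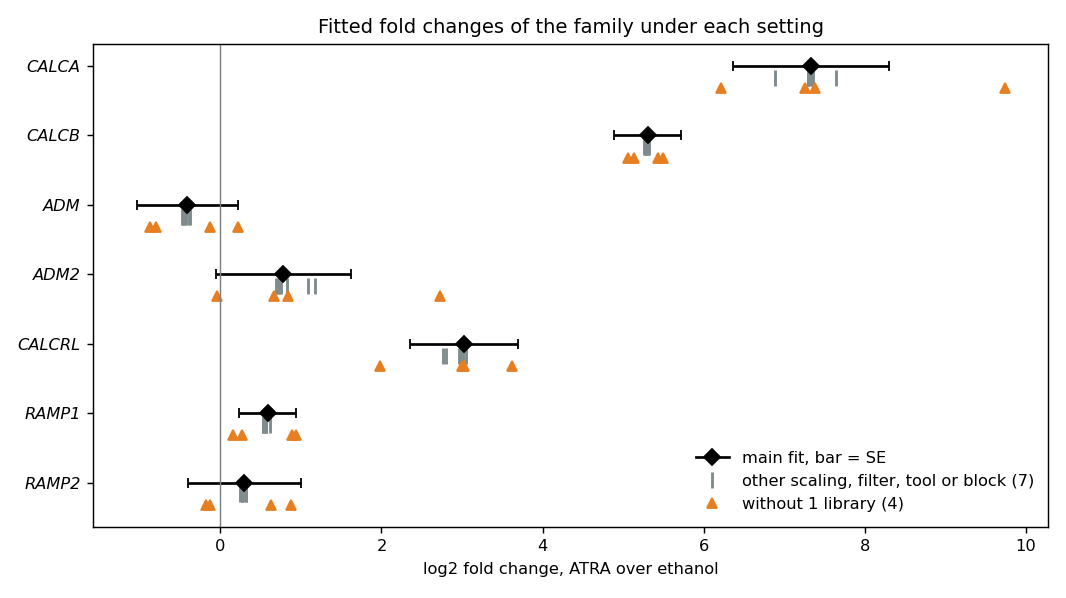
Fitted log2 fold changes, ATRA over ethanol, of the 7 tested members; diamonds with SE bars are the values reported, grey ticks the 7 other scalings, filters, tools and the replicate block, and orange triangles the 4 fits that leave out 1 library. CALCB stays between 5.06 and 5.49 and CALCRL between 1.99 and 3.62, while ADM, ADM2 and RAMP2 change sign when a library is left out.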

How the data were processed

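The values deposited are whole-number read counts for each gene symbol, not normalized by the authors. Per the submitters' processing notes, STAR 2.5.2b, featureCounts 1.5.1 and the build hg19 were used. No source used here gives the annotation, the strand setting or what was done with reads that fit more than 1 gene, so no coordinates of the counted genes are printed. ATRA was compared with ethanol by the robust quasi-likelihood test of edgeR 4.0.16 (R 4.3.3) after filterByExpr (minimum count 10) and TMM scaling, with treatment as the model's only term and 2 residual degrees of freedom. Tests were two-sided, with Benjamini-Hochberg adjustment over 18900 genes and a threshold of 0.05. The SE of a log2 fold change is its absolute value over the root of its F statistic. DESeq2 1.42.0 and limma-voom (limma 3.58.1) were alternatives. Log2 differences between same-numbered libraries use a prior count of 2.

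The members, the gene lists and the motifs were chosen with earlier results of these data known. All members are named; from each list up to 2 genes called in each direction are named, or else the 2 with the smallest p that average 1 or more in log2 CPM, and every other name (neighbours, markers, PAM, PCSK1, MME, FOXA2 and IAPP) was chosen after its values were seen. Exon lengths, overlaps and transcript stretches come from GENCODE 29 and promoters and gene order from RefSeq, both of build GRCh38; 6 of the 9 members matched a promoter. GRK2 and GRK3 were found under older symbols, and PECAM1 was not analysed here. Some values that fall under the naming rule are left out.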

Additional observations from a re-analysis of the deposited data

How the results depend on the processing

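The members were chosen on this contrast, so their calls under other fits describe the fits and are no support for the members. CALCA was called in 10 of the 11 alternatives, not with limma-voom, CALCB in 11 and CALCRL in 6. Under these 11 the count of members called higher, 2 in the values reported, was 1 with limma-voom, and 2 to 4 when 1 library was left out; the others added to it were CALCRL and, without ethanol library 2, ADM2. No alternative called a member lower. CALCA's fitted log2 fold change was 6.22 without ethanol replicate 2 and 9.74 without ethanol replicate 1, which leaves the ethanol group with no read, so that this value depends on the prior count. CALCRL passed with DESeq2, under the replicate block, where all genes with 1 count or more were kept, and without ATRA replicate 2, ethanol replicate 1 or ethanol replicate 2. The fits that left out a library called 870 to 1442 of all genes, against 132 in the values reported, so calls in them are no added support. All genes called were 1821 where all genes with 1 count or more were kept, 1269 with DESeq2 and 50 with limma-voom.

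The pathway genes called higher, 1 in the values reported, were 0 with RLE size factors, library size alone and limma-voom, 15 where all genes with 1 count or more were kept, 12 with DESeq2 and 7 to 12 without a library. Those called lower, 0 in the values reported, were 1 with RLE size factors, 8 with all genes of 1 count or more, 4 with DESeq2 and 4 to 5 without a library. The cause was not tested.

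The labels do not say that a title number marks a shared culture or day. Deviations of same-numbered libraries from their group means correlated at 0.632 across genes. With the title number as a replicate block, edgeR called 4098 genes in all, 21.7% of those tested. It called 3 members higher (CALCA, CALCB and CALCRL) and 0 lower, and 26 pathway genes higher and 15 lower. Depth limits CALCA with ethanol, RAMP2, CALCR and RAMP3.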
